A study of Mus musculus with 7 samples.

Results

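The nuclear genes of oxidative phosphorylation were taken from the deposited counts of sorted cortical microglia by symbol, as every gene named Nduf followed by a, b, c, s or v and a number, Sdha to Sdhd, every gene beginning with Uqcr, Cox4 to Cox8, and every gene beginning with Atp5. The rule found 84 of the 23420 genes in the table, with 37 in complex I, 4 in complex II, 8 in complex III, 18 in complex IV and 17 in complex V. Of these, 77 had enough counts to be tested. Microglia are the resident macrophages of the brain, and Srgap2 encodes an F-BAR protein that shapes membranes and regulates actin. The 4 cKO mice were Tmem119creErt2+ Srgap2f/f, so that a tamoxifen-inducible recombinase driven from the microglial gene Tmem119 could delete Srgap2, and the 3 WT mice were Srgap2f/f mice without that recombinase. Both groups carried the floxed allele and both were gavaged with tamoxifen, at 75 ug per g of body weight on postnatal days 8 and 10, and both were 30 days old when about 100000 CD11b+, CD45low, CX3CR1+ cells were sorted per cortex. Because the recombinase was present in cKO mice alone, its own effects and those of losing Srgap2 cannot be told apart. The labels give a mouse number for each library, and cKO1 to cKO4 (mice 1060, 1062, 1105 and 1109) and WT1 to WT3 (mice 1058, 1101 and 1102) are used as names below.

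Oxidative phosphorylation takes place in the inner mitochondrial membrane. Complex I oxidises NADH and complex II oxidises succinate, both pass electrons to ubiquinone, complex III hands them to cytochrome c, and complex IV gives them to oxygen. Complexes I, III and IV pump protons, and complex V, the ATP synthase, lets the protons flow back to make ATP. Complexes I, III, IV and V mix subunits encoded in the nucleus with subunits encoded in mitochondrial DNA, and complex II is entirely nuclear; the mitochondrially encoded subunits are not analysed here. Resting microglia have a branched, surveying form and draw much of their ATP from this pathway, whereas strongly activated microglia rely more on glycolysis.

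The total count ranged from 27016173 to 35707304 per library. Srgap2 itself was at 344, 257, 275 and 212 CPM in cKO1 to cKO4, against 979, 691 and 693 CPM in WT1 to WT3, and fell by 1.53 on the log2 scale (SE 0.17, adjusted p = 0.0053). CPM is the count relative to the TMM-scaled library size, and every adjusted p is from edgeR's quasi-likelihood F test with Benjamini-Hochberg adjustment over the 11991 genes tested, with a threshold of 0.05. The 10 microglia marker genes summed to 50190 to 57666 CPM in cKO and 57538 to 60353 CPM in WT. Of the 10, 1 passed the threshold, Tmem119 (log2 fold change −0.82, SE 0.15, adjusted p = 0.046). Its mean was 3707 CPM in cKO and 6557 CPM in WT. The recombinase of cKO mice is driven from this gene, so an effect of that allele on its level cannot be told apart from other causes. The 6 neuronal markers summed to at most 3.49 CPM in any library. The 6 oligodendrocyte-lineage markers summed to 93.8 to 145 CPM in cKO and 109 to 120 CPM in WT. The 6 astrocyte markers summed to 137, 86.8, 96.2 and 83.9 CPM in cKO1 to cKO4, against 131, 132 and 136 CPM in WT1 to WT3. The 4 erythroid markers, 2 of them at 0 throughout, summed to 20.6 CPM in cKO4, where the other libraries held 6.56 CPM or less. Markers of border-associated macrophages summed to 59.0 to 116 CPM in cKO and 64.6 to 97.8 CPM in WT, and endothelial and mural markers to 53.0 to 72.4 CPM in cKO and 67.4 to 75.9 CPM in WT. The part of these cells in the results was not tested. In sorted bulk RNA, fewer cells of a type and less RNA per cell cannot be told apart.

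Promoters are shown for 4 of the members named below, picked because they hold at least 1 of the words marked, since genes of oxidative phosphorylation are known targets of NRF1, YY1 and ETS-family factors. The sequences are from RefSeq (GRCm38.p6) and run 5′ to 3′ on the gene's strand, from 250 bases before the annotated start to 50 after it; capitals mark GCGCATGCG (NRF1), AAGATGGCG (YY1) and CCGGAAG (ETS) on either strand, and the NRF1 word of Cox6a1 overlaps its own reverse complement.
Cox6a1, chr5:115348909-115349208, minus strand: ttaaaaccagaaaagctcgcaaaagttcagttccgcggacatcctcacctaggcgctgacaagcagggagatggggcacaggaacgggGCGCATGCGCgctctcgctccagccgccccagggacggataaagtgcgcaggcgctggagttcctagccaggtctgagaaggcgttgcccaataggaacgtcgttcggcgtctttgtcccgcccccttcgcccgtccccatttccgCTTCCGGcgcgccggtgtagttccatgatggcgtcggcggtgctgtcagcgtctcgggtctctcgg
Uqcr11, chr10:80406772-80407071, minus strand: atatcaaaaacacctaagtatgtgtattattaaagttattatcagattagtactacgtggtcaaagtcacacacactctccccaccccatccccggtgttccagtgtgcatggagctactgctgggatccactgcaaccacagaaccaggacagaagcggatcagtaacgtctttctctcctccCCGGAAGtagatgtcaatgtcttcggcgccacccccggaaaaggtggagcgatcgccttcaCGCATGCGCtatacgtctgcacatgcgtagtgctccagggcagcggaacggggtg
Atp5j, chr16:84834927-84835226, minus strand: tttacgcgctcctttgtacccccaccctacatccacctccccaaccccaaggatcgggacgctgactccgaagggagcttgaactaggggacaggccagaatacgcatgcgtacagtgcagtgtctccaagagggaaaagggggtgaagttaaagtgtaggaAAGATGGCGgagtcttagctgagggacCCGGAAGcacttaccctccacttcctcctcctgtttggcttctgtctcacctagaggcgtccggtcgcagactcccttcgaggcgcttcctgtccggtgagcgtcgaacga
Ndufs6, chr13:73328433-73328732, minus strand: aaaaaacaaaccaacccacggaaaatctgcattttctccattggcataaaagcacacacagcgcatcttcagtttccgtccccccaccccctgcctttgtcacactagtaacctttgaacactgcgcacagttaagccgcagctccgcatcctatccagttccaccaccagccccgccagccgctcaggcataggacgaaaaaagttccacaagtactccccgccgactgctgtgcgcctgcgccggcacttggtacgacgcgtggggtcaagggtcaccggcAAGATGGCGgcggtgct
The start of Atp5j shown is one of 2 annotated in that table. Over the 65 tested members that had a promoter there, 8 (12.3%) held the NRF1 word, against 4.32% of the 9585 tested genes with a promoter, and 8 (12.3%) held the YY1 word, against 3.74%. The ETS word was in 24.6% of the members and 21.1% of the tested genes. The SP1 word GGGCGG was less frequent, in 41.5% of the members and 68.9% of the tested genes. The estrogen-related receptor word TCAAGGTCA was in 2 members, Sdhd and Atp5g3 (3.08%), against 0.334% of the tested genes. The promoters of Ndufa1, Atp5g1, Cox7b and Sdha, also named below, held none of the NRF1, YY1 and ETS words. By complex, the YY1 word was in 5 of 31 members of complex I, 3 of 16 of complex V and 0 of 18 of the others. The 3 of complex V were Atp5j, Atp5j2 and Atp5sl, and Atp5sl is not a structural subunit. The median log2 fold changes of cKO over WT in members with and without a word were 0.36 and 0.39 for NRF1, 0.39 and 0.37 for YY1, and 0.44 and 0.36 for ETS. The median was 0.27 for the 2 members with the estrogen-related receptor word and 0.39 for the others, and 0.36 and 0.38 with and without the SP1 word. A match is a description of these letters and not of binding.

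Oxidative phosphorylation genes were almost all higher in cKO than in WT microglia by a small amount, and none passed the threshold after adjustment over all genes. The log2 fold change of cKO over WT was above 0 for 75 of the 77 members tested, beside 48.1% of all genes tested, and its median was 0.37, a 1.29-fold difference, beside −0.01 for all genes. None of the 77 passed in either direction, where 0.317% of all genes passed on the higher side and 0.359% on either side. The smallest adjusted p was 0.10, for Cox6c; limma-voom called 0 members as well, and DESeq2 called 11 (3.12% of all genes on the higher side). Before adjustment, 45 members had p under 0.05 on the higher side (9.65% of all genes did) and Atp5sl alone on the lower side (6.87%). Every cKO library was above every WT library for 24 of the 77, or 31.2%, where this held for 8.86% of all genes, and every cKO library was below every WT library for Atp5sl alone (7.2% of all genes). The median was 0.35 for complex I, 0.24 for complex II, 0.40 for complex III, 0.51 for complex IV and 0.39 for complex V.

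**Figure D1:**
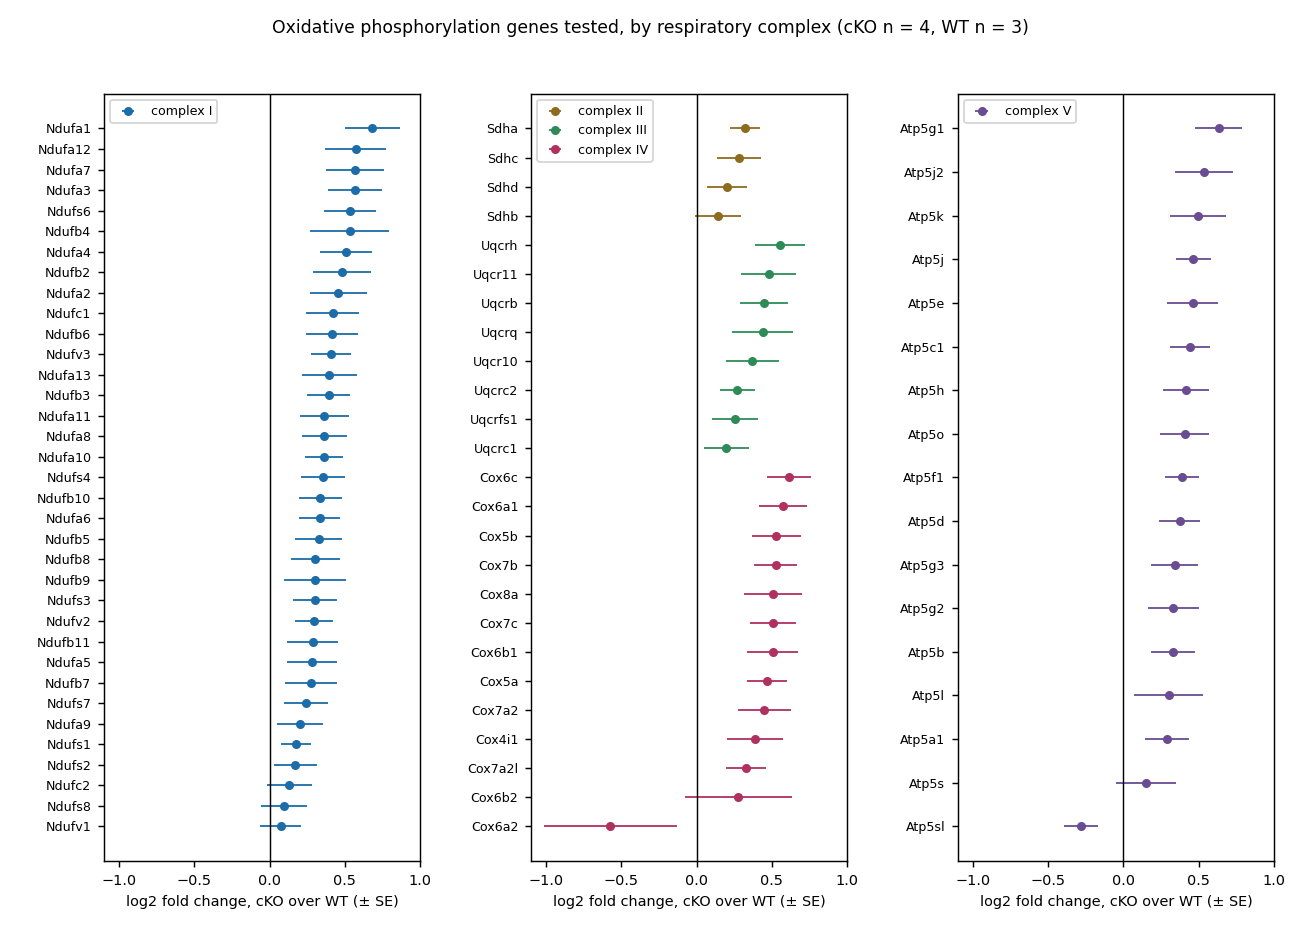
Log2 fold change of cKO over WT for the 77 tested oxidative phosphorylation genes, one row a gene, with bars of ± 1 SE and colours for the complex given by the symbol. All but Cox6a2 and Atp5sl lie above 0, and the medians of the complexes run from 0.24 in complex II to 0.51 in complex IV.

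The libraries of each group differed from one another as well. The mean log2 CPM over the tested members was 5.37, 5.66, 5.57 and 5.93 in cKO1 to cKO4, against 5.08, 5.34 and 5.43 in WT1 to WT3, so cKO1 was below WT3 and the groups overlapped. The difference of the group means was 0.35, where the SD was 0.23 in cKO and 0.18 in WT. The library cKO4 held the highest value of 69 of the 77 members and WT1 the lowest of 66, while cKO4 was highest for 22.7% of all genes and WT1 lowest for 18.4%. Without cKO4 the members' median was 0.26, 73 of 77 were above 0 and 24 had an unadjusted p under 0.05 on the higher side (9.44% of all genes). Without WT1 the median was 0.28, 74 of the 77 were above 0 and 16 had such a p (8.08%). The number with every cKO library above every WT library was 24 without cKO4 (12.05% of all genes) and 24 without WT1 (13.8%). It was 61 without cKO1 (14.3%) and 43 without WT3 (12.6%). Leaving out a library can hardly lower this count, which was 24 with all 7 libraries (8.86% of all genes), so it does not measure stability. Without cKO1 61 members had an unadjusted p under 0.05 (10.7%). The median of complex III was 0.22 without cKO4, and that of complex II was 0.16 without cKO4 and 0.14 without WT1. In every complex the order ran from WT1 at the bottom to cKO4 at the top. Complex IV stood at 4.96, 5.14, 5.13 and 5.55 in cKO1 to cKO4, against 4.62, 4.79 and 5.04 in WT1 to WT3. Complex II, with the smallest median, stood at 6.83, 7.14, 7.01 and 7.27 in cKO1 to cKO4, against 6.67, 6.93 and 6.89 in WT1 to WT3.

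**Figure D2:**
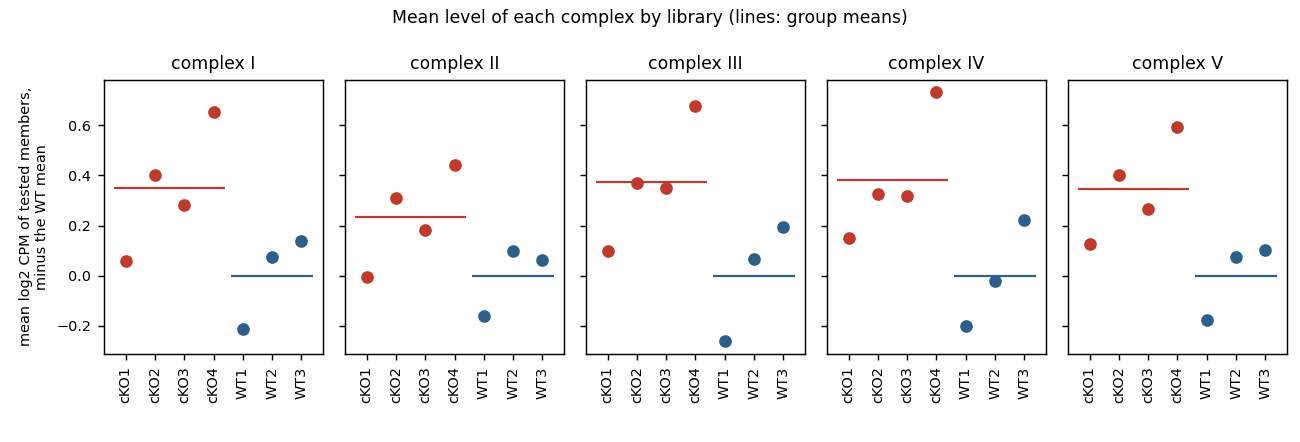
Mean log2 CPM of the tested members of each complex in every library, minus the WT mean, with cKO libraries in red, WT libraries in blue and a line at each group mean. cKO4 is highest and WT1 lowest in all 5 complexes, and cKO1 lies within the WT range in complexes I to IV.

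Complex I had 35 members tested, all with a log2 fold change above 0 (range 0.07 to 0.68), and 9 of the 35, or 25.7%, had every cKO library above every WT library, beside 8.86% of all genes. The 4 members with the smallest p were all accessory subunits. Ndufa1, a small subunit of the membrane arm that is encoded on the X chromosome, was at 20.2, 24.4, 21.0 and 31.6 CPM in cKO1 to cKO4, against 12.7, 14.8 and 17.9 CPM in WT1 to WT3, with no overlap and cKO4 well above the rest. It had the highest log2 fold change of all members, 0.68 (SE 0.18, adjusted p = 0.13). Ndufa3, another small membrane-arm subunit, was at 36.1, 40.2, 45.0 and 58.6 CPM in cKO1 to cKO4, against 28.3, 26.1 and 36.8 CPM in WT1 to WT3, and cKO1 lay just below WT3. This gave a log2 fold change of 0.57 (SE 0.18, adjusted p = 0.16). Ndufs6, a zinc-binding subunit needed to join the NADH-oxidising module to the complex, had 23.3, 32.4, 26.9 and 36.5 CPM in cKO1 to cKO4, against 17.1, 23.0 and 21.5 CPM in WT1 to WT3. The lowest of these cKO values was close to the highest WT value, with a log2 fold change of 0.54 (SE 0.17, adjusted p = 0.16). Ndufv3, an accessory subunit of the same NADH-oxidising module, had 39.1, 48.8, 45.1 and 54.3 CPM in cKO1 to cKO4, against 31.8, 37.4 and 36.9 CPM in WT1 to WT3, again without overlap. Its log2 fold change was 0.41 (SE 0.13, adjusted p = 0.17).

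Within complex I, the subunits that carry the chemistry had smaller differences between cKO and WT than the accessory ones, by their medians. The median log2 fold change was 0.18 for the 7 core subunits encoded in the nucleus, which hold the flavin, the iron-sulfur clusters and the quinone site, and 0.38 for the 28 accessory subunits. These 28 are taken by symbol and include Ndufa4, which is known as a subunit of human complex IV. The largest core value was 0.30, for Ndufs3. Ndufv1, which binds NADH and the flavin, had the smallest value of the complex. Its levels were 80.0, 104, 91.5 and 114 CPM in cKO1 to cKO4, against 84.2, 102 and 92.3 CPM in WT1 to WT3, so the groups overlapped throughout, and its log2 fold change was 0.07 (SE 0.13, adjusted p = 0.84), below 0 without cKO4. By position, the median was 0.38 for 8 subunits of the NADH-oxidising module, 0.26 for 8 of the module that reduces quinone and 0.33 for 10 Ndufb subunits of the membrane arm. Core subunits have longer transcripts than accessory ones (median 1623 against 694 bases), and the core and accessory medians were 0.18 and 0.27 with offsets for length, 0.16 and 0.25 with offsets for length and GC content, and 0.17 and 0.29 with both taken from the longest transcript. Ndufs5, whose product is a subunit of the intermembrane face, was listed at 0 in all 7 libraries and was not tested. Ndufb4 was at only 1.90, 2.20, 2.33 and 3.37 CPM in cKO1 to cKO4 and 1.53, 1.68 and 1.87 CPM in WT1 to WT3. Ndufs5 and Ndufb4 both have near-identical copies in the mouse genome, so the assignment of their reads is uncertain.

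Complex II is the only complex that also acts in the tricarboxylic acid cycle, and its 4 members had the smallest median between cKO and WT, 0.24. Sdha, the flavoprotein that oxidises succinate, had the smallest p of the 4. It was at 271, 309, 282 and 307 CPM in cKO1 to cKO4, against 228, 235 and 239 CPM in WT1 to WT3, and every cKO library was above every WT library. The mean was 292 ± 18.5 CPM in cKO (SD, n = 4) and 234 ± 5.81 CPM in WT (SD, n = 3), with a log2 fold change of 0.32 (SE 0.10, adjusted p = 0.15) that stayed between 0.29 and 0.34 when any library was left out. The other 3 subunits overlapped between groups. Sdhb, the iron-sulfur subunit that passes electrons on from the flavin, had 93.5, 130.4, 123 and 150.2 CPM in cKO1 to cKO4, against 99.8, 126 and 112 CPM in WT1 to WT3 (log2 fold change 0.14, SE 0.15, adjusted p = 0.70). Sdhc, one of the membrane anchors that hold the heme and the quinone site, had 87.5, 110.4, 98.2 and 121 CPM in cKO1 to cKO4, against 69.8, 97.8 and 89.2 CPM in WT1 to WT3 (log2 fold change 0.28, SE 0.15, adjusted p = 0.36). Sdhd, the other anchor, had 74.5, 88.6, 81.4 and 103 CPM in cKO1 to cKO4, against 67.3, 75.4 and 83.5 CPM in WT1 to WT3 (log2 fold change 0.20, SE 0.13, adjusted p = 0.48). For Sdhc and Sdhd cKO1 lay inside the WT range, for Sdhb it lay below it, and cKO4 was the highest library for all 3.

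Complex III had 8 members, all with a log2 fold change above 0. Uqcrh, the hinge subunit next to cytochrome c1, was at 34.8, 40.0, 42.4 and 54.9 CPM in cKO1 to cKO4, against 24.3, 30.8 and 32.8 CPM in WT1 to WT3. The groups did not overlap, with a log2 fold change of 0.55 (SE 0.17, adjusted p = 0.15). Uqcrb, a small subunit on the matrix side, was at 29.9, 32.1, 34.5 and 39.0 CPM in cKO1 to cKO4, against 19.3, 26.1 and 29.0 CPM in WT1 to WT3, a narrow gap without overlap. Its log2 fold change was 0.45 (SE 0.16, adjusted p = 0.19). Uqcr11, a small accessory subunit whose promoter is shown above, was at 27.2, 36.5, 33.5 and 44.7 CPM in cKO1 to cKO4, against 21.2, 23.5 and 31.5 CPM in WT1 to WT3. Here WT3 was above cKO1, with a log2 fold change of 0.48 (SE 0.18, adjusted p = 0.22). Uqcrc2, one of the large core proteins of the matrix side, was at 103, 118, 114 and 131 CPM in cKO1 to cKO4, against 88.5, 94.5 and 107 CPM in WT1 to WT3, with WT3 above cKO1. Its log2 fold change was 0.27 (SE 0.12, adjusted p = 0.27). The median was 0.26 for the 3 large subunits Uqcrc1, Uqcrc2 and the iron-sulfur protein Uqcrfs1, and 0.45 for the 5 small accessory ones; these were 0.26 and 0.26 with offsets for length, 0.25 and 0.29 with offsets for length and GC content, and 0.23 and 0.36 with both taken from the longest transcript. Cyc1, the nuclear-encoded cytochrome c1 of this complex that the symbol rule does not take, averaged 110.0 ± 18.9 CPM in cKO (SD, n = 4) and 99.6 ± 8.69 CPM in WT (SD, n = 3), with a log2 fold change of 0.14 (SE 0.14, adjusted p = 0.67).

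Complex IV, cytochrome c oxidase, had the highest median, and its 10 subunits of the common form lay close together. All 10 were above 0, between 0.39 and 0.61 on the log2 scale, with a median of 0.51, and in 6 of them every cKO library was above every WT library, beside 8.86% of all genes. Cox6c, a single-helix subunit of the membrane part, was at 34.8, 34.8, 40.6 and 48.0 CPM in cKO1 to cKO4, against 22.3, 27.6 and 27.6 CPM in WT1 to WT3. The mean was 39.5 ± 6.27 CPM in cKO (SD, n = 4) and 25.8 ± 3.04 CPM in WT (SD, n = 3), a log2 fold change of 0.61 (SE 0.15, adjusted p = 0.10). Even the lowest cKO libraries exceeded the highest WT library by several CPM. Cox7b, an X-linked subunit of the membrane part, was at 32.1, 32.8, 38.4 and 43.2 CPM in cKO1 to cKO4, against 22.1, 25.4 and 28.8 CPM in WT1 to WT3, without overlap (log2 fold change 0.52, SE 0.14, adjusted p = 0.13). Cox6a1, which lies at the dimer interface and has one of the promoters shown, was at 138, 189, 166 and 205 CPM in cKO1 to cKO4, against 93.2, 133 and 125 CPM in WT1 to WT3, with cKO1 only slightly above WT2. Its log2 fold change was 0.57 (SE 0.16, adjusted p = 0.13). Cox5a, a matrix-side subunit, was at 32.0, 39.5, 37.1 and 44.1 CPM in cKO1 to cKO4, against 25.1, 26.9 and 30.7 CPM in WT1 to WT3 (log2 fold change 0.47, SE 0.14, adjusted p = 0.14), also without overlap.

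**Figure D3:**
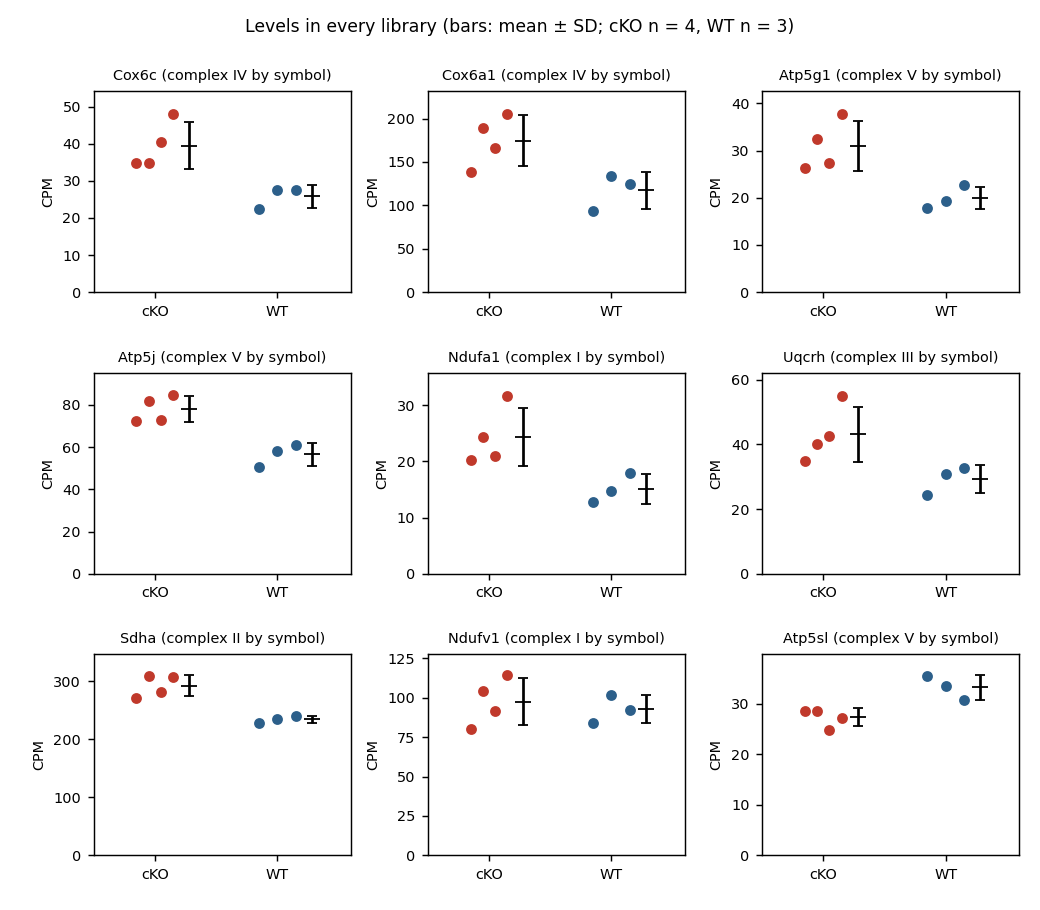
Level in CPM of 9 members in each cKO library (red) and WT library (blue), with bars for the mean ± SD; points of a group are in replicate order. Cox6c, Cox6a1, Atp5g1, Atp5j, Ndufa1, Uqcrh and Sdha have all 4 cKO libraries above all 3 WT libraries, Ndufv1 overlaps, and Atp5sl has all cKO libraries below.

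Several subunits of complex IV have alternative isoforms, and in cKO and WT microglia alike the common ones were the abundant ones. Levels between genes are compared here as mean CPM per kilobase of the principal transcript. Cox4i1, the regulatory subunit and the most abundant member of all, was at 384 in cKO and 293 in WT, while its lung and hypoxia isoform Cox4i2 was at 0.0771 in cKO and 0.0168 in WT, with 8 reads over all libraries. By library, Cox4i1 had 213, 303, 253 and 374 CPM in cKO1 to cKO4, against 173, 238 and 243 CPM in WT1 to WT3, which overlapped (log2 fold change 0.39, SE 0.19, adjusted p = 0.32). Cox6a1 was at 306 in cKO and 205 in WT per kilobase, and its heart and muscle isoform Cox6a2 at 4.42 in cKO and 6.58 in WT. Cox6a2 was one of the 2 members below 0: it had 2.84, 2.37, 1.38 and 5.42 CPM in cKO1 to cKO4, against 3.87, 2.35 and 7.2 CPM in WT1 to WT3, with the groups interleaved and a log2 fold change of −0.57 (SE 0.44, adjusted p = 0.57). Leaving out single libraries moved it between −1.03 and −0.04.

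Cox6b1, on the intermembrane face where cytochrome c docks, was at 148 in cKO and 104 in WT per kilobase, and the testis isoform Cox6b2 at 1.41 in cKO and 1.16 in WT. Cox6b1 had 68.0, 90.5, 89.0 and 118 CPM in cKO1 to cKO4, against 55.1, 66.2 and 71.5 CPM in WT1 to WT3, with cKO1 below WT3 (log2 fold change 0.51, SE 0.17, adjusted p = 0.18). Cox6b2 had 0.727, 0.541, 1.09 and 0.766 CPM in cKO1 to cKO4, against 0.621, 0.635 and 0.670 CPM in WT1 to WT3 (log2 fold change 0.28, SE 0.35, adjusted p = 0.75), and its 153 reads in total limit what can be read from it. Cox7a2, the common form of subunit 7a, was at 49.5 in cKO and 36.2 in WT per kilobase, the heart and muscle form Cox7a1 at 0.987 in cKO and 0.481 in WT, and Cox7a2l, which links complexes III and IV in supercomplexes, at 72.5 in cKO and 57.7 in WT. In single libraries, Cox7a2 had 25.4, 30.6, 32.4 and 42.0 CPM in cKO1 to cKO4, against 20.4, 23.1 and 28.2 CPM in WT1 to WT3 (log2 fold change 0.45, SE 0.18, adjusted p = 0.23), with overlap. Cox7a2l had 69.5, 80.1, 71.1 and 91.4 CPM in cKO1 to cKO4, against 54.0, 63.6 and 68.8 CPM in WT1 to WT3 (log2 fold change 0.33, SE 0.13, adjusted p = 0.24), and its groups did not overlap. Cox8a, the common form of subunit 8, was at 171 in cKO and 120.0 in WT per kilobase. It had 73.2, 89.4, 85.5 and 128 CPM in cKO1 to cKO4, against 52.7, 66.8 and 78.6 CPM in WT1 to WT3 (log2 fold change 0.51, SE 0.19, adjusted p = 0.21), with cKO1 below WT3. The muscle form Cox8b, the testis forms Cox8c and Cox7b2, and the hypoxia-induced Ndufa4l2 were listed at 0 in all 7 libraries, and 3 counts, the limit that a count of 0 allows, would be 0.0840 to 0.111 CPM per library, counting error only. Ndufa4, which the symbol puts in complex I but which is known as a subunit of human complex IV, was at 129 in cKO and 91.0 in WT per kilobase. Its levels were 46.8, 57.2, 58.7 and 71.3 CPM in cKO1 to cKO4, against 30.6, 46.5 and 46.2 CPM in WT1 to WT3, with the lowest cKO library only just above the highest WT library (log2 fold change 0.51, SE 0.17, adjusted p = 0.18).

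Complex V, the ATP synthase, had 17 members by symbol, of which 15 encode structural subunits, and all 15 were above 0. Atp5g1, an isoform of the ring-forming subunit c, was at 26.3, 32.4, 27.3 and 37.8 CPM in cKO1 to cKO4, against 17.9, 19.3 and 22.6 CPM in WT1 to WT3, with no overlap. The mean was 31.0 ± 5.26 CPM in cKO (SD, n = 4) and 20 ± 2.41 CPM in WT (SD, n = 3), a 1.55-fold difference (log2 fold change 0.63, SE 0.15, adjusted p = 0.11). The 3 genes Atp5g1, Atp5g2 and Atp5g3 encode the same mature subunit c, and per kilobase Atp5g3 was the most abundant, at 125 in cKO and 99.2 in WT, before Atp5g1 at 44.8 in cKO and 28.9 in WT and Atp5g2 at 33.9 in cKO and 27 in WT. Atp5g2 had 13.1, 15.8, 12.2 and 18.7 CPM in cKO1 to cKO4, against 11, 12.3 and 12.5 CPM in WT1 to WT3 (log2 fold change 0.33, SE 0.17, adjusted p = 0.35), with cKO3 below WT2 and WT3. Atp5g3 had 68.4, 100.0, 86.4 and 103 CPM in cKO1 to cKO4, against 60.2, 80.7 and 71.5 CPM in WT1 to WT3 (log2 fold change 0.34, SE 0.16, adjusted p = 0.31), with cKO1 inside the WT range.

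The stalks of complex V join its catalytic head to the membrane part, and 3 of their subunits followed Atp5g1 in the order of p. Atp5j, coupling factor 6 of the peripheral stalk, was at 72.6, 82, 72.8 and 85.0 CPM in cKO1 to cKO4, against 50.4, 58.1 and 61.3 CPM in WT1 to WT3. The lowest cKO library was well clear of the highest WT library, with a log2 fold change of 0.46 (SE 0.12, adjusted p = 0.11). Atp5f1, subunit b of the same stalk, was at 100.3, 121, 116 and 125 CPM in cKO1 to cKO4, against 80.5, 92.2 and 92.3 CPM in WT1 to WT3 (log2 fold change 0.39, SE 0.11, adjusted p = 0.14), also without overlap. Atp5c1, the rotating gamma subunit of the central stalk, was at 105, 135, 126 and 149 CPM in cKO1 to cKO4, against 84.2, 96.5 and 104 CPM in WT1 to WT3, with cKO1 just above WT3 (log2 fold change 0.44, SE 0.13, adjusted p = 0.15). The median was 0.41 for the 4 peripheral stalk subunits, 0.37 for the 5 subunits of the head and central stalk, 0.34 for the 3 genes of the ring and 0.50 for 3 small subunits of the membrane part. The catalytic subunits Atp5b and Atp5a1 were among the most abundant members, at 350.0 in cKO and 279 in WT and at 246 in cKO and 201 in WT in CPM per kilobase, with log2 fold changes of 0.33 and 0.29. Atp5l, one of the small subunits, has near-identical copies in the mouse genome, and its read assignment is uncertain.

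Atp5sl and Atp5s carry an older ATP synthase symbol but are not structural subunits; their current names are Dmac2, an assembly factor of the membrane arm of complex I in human cells, and Dmac2l. Atp5sl was the one member with every cKO library below every WT library. It was at 28.6, 28.6, 24.8 and 27.2 CPM in cKO1 to cKO4, against 35.5, 33.5 and 30.7 CPM in WT1 to WT3, a log2 fold change of −0.28 (SE 0.11, adjusted p = 0.24). Atp5s had a log2 fold change of 0.15 (SE 0.20, adjusted p = 0.76).

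The remaining genes of mitochondrial energy metabolism were looked at by lists. In the tricarboxylic acid cycle, which feeds NADH and succinate into the chain, 14 of 14 genes tested were above 0, with a median of 0.23. None passed the threshold of edgeR's test, and 4 of the 14 had an unadjusted p under 0.05 on the higher side, beside 9.65% of all genes. Idh3a, the catalytic subunit of NAD-dependent isocitrate dehydrogenase, was at 43.8, 39.3, 39.5 and 36.1 CPM in cKO1 to cKO4, against 25.5, 27.6 and 30.4 CPM in WT1 to WT3 (log2 fold change 0.51, SE 0.12, adjusted p = 0.097). It differs from most members in that cKO4 was the lowest of the cKO libraries. Citrate synthase, Cs, had a log2 fold change of 0.34 (SE 0.10, adjusted p = 0.15). Cycs, the cytochrome c that carries electrons to complex IV, and Ndufab1, the acyl carrier protein of complex I, had values of 0.26 (SE 0.16) and 0.36 (SE 0.20).

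Factors that assemble the complexes had no such common difference between cKO and WT. Their transcripts were longer, with medians of 1673, 2735.5, 2156, 1224 and 1400 bases for complexes I to V. The members had a median of 742 bases, and the part of length in this contrast was not tested. The number above 0 was 8 of 15 for complex I (median 0.0028), 2 of 4 for complex II (0.10), 4 of 6 for complex III (0.03), 13 of 21 for complex IV (0.04) and 3 of 6 for complex V (0.03). None of these passed edgeR's test, and an unadjusted p under 0.05 was found on the higher side for 6 of the 21 complex IV factors, 1 of 15 for complex I and 1 of 6 for complex III, beside 9.65% of all genes, and on the lower side for 1 complex I factor, beside 6.87%. The smallest p belonged to Ndufaf2 (log2 fold change 0.53) and Tmem126b (−0.38) for complex I, to Mnf1 (0.43) for complex III and to Coa5 (0.42) and Cox14 (0.41) for complex IV. Regulators of mitochondrial biogenesis and mitochondrial DNA upkeep were above 0 for 5 of 15, with a median of −0.06, and edgeR's test passed none of them (unadjusted p under 0.05 for 1 on the higher and 2 on the lower side, beside 9.65% and 6.87% of all genes). Among them Peo1, the mitochondrial DNA helicase Twinkle, was at 16.6, 18.5, 15.8 and 20.8 CPM in cKO1 to cKO4, against 24.3, 30.9 and 27 CPM in WT1 to WT3 (log2 fold change −0.61, SE 0.14, adjusted p = 0.097), and Polg2, the accessory subunit of the mitochondrial DNA polymerase, had −0.38. The mitochondrial import list was above 0 for 16 of 18 (median 0.19), led by the small translocase subunits Tomm6 (0.52) and Tomm7 (0.51). Fusion and fission genes were above 0 for 5 of 8 (median 0.09); Smcr7, a receptor for the fission protein Drp1, had −0.48 and the receptor Mff 0.32. Mitochondrial ribosomal proteins were above 0 for 58 of 76 (median 0.12) and cytosolic ribosomal proteins for 78 of 82 (median 0.42), with median transcript lengths of 1224.5 and 754 bases. Of these 4 lists edgeR's test passed 0 members, and unadjusted p was under 0.05 on the higher side for 3 of 18, 2 of 8, 10 of 76 and 68 of 82 in the order given, beside 9.65% of all genes, and on the lower side for Smcr7 alone, beside 6.87%.

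Oxidative phosphorylation genes have short transcripts, and among them the log2 fold change of cKO over WT was higher for shorter transcripts. The principal transcript had a median of 742 bases in the members and 2778 bases in all genes tested, and 64.9% of members were under 1000 bases, against 7.77% of all genes. Across the 77 members the Spearman correlation between log2 fold change and length was −0.54, and with GC content 0.02; the members share the same 7 libraries, and across all 11911 genes with values it was −0.11 with length and −0.13 with GC content. The 10 members under 500 bases had a median of 0.47, where the 126 other genes of that length had −0.13 and 42.9% of them were above 0. Members of 500 to 750 bases had a median of 0.43, where the 290 other genes of that length had 0.22 and 76.2% of them were above 0. Members of 1500 to 2500 bases had 0.29, where other genes had −0.03. Within libraries, the deviation of a gene from its mean over libraries correlated with length at 0.31, −0.17, 0.02 and −0.38 in cKO1 to cKO4, against 0.41, −0.06 and −0.23 in WT1 to WT3, and with GC content at −0.52, 0.16, −0.41 and 0.44 in cKO1 to cKO4, against −0.01, 0.07 and 0.24 in WT1 to WT3. With offsets for length and GC content, 10 members passed (3.84% of all genes did on the higher side), 74 of 77 were above 0 and the members' median was 0.25. The medians were then 0.23, 0.22, 0.25, 0.27 and 0.30 for complexes I to V, so that the order of the complexes seen without offsets did not hold.

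**Figure D4:**
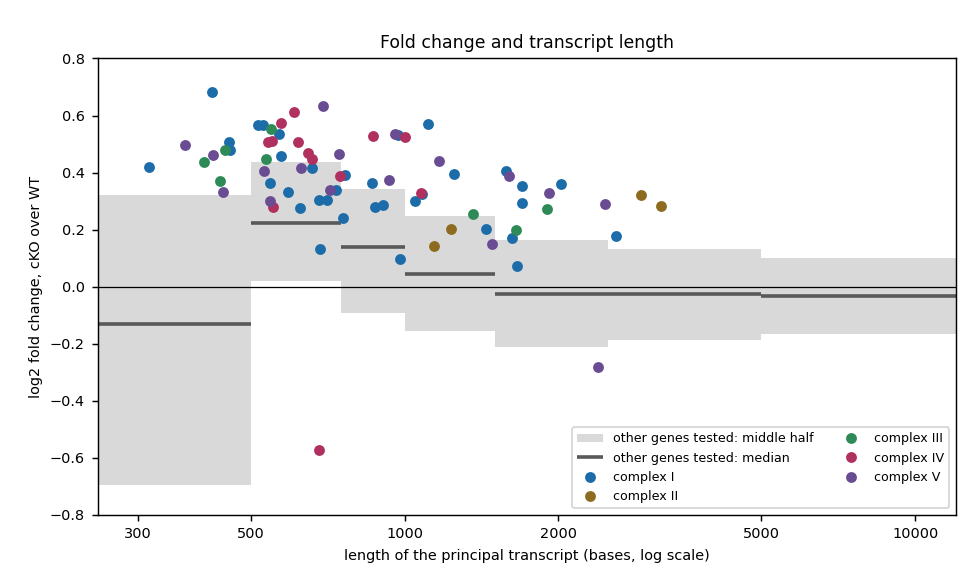
Log2 fold change of cKO over WT against the length of the principal transcript for the 77 tested members, coloured by complex, over the median (dark line) and the middle 50% (grey) of all other genes tested in bins of length. In every bin that holds members their median is above that of the other genes, and shorter members have higher values, with medians of 0.47 under 500 bases and 0.29 from 1500 to 2500 bases.

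Xist, the RNA of the inactive X chromosome, differed between libraries of the same group; it was at 69.4 and 144 CPM in cKO2 and cKO4, at 243 and 127 CPM in WT2 and WT3, and no higher than 0.66 CPM in cKO1, cKO3 and WT1. Libraries with Xist had higher levels of oxidative phosphorylation genes within each group. Between libraries alike in Xist, the mean log2 CPM of the members was 5.66 and 5.93 in cKO2 and cKO4, against 5.34 and 5.43 in WT2 and WT3, and 5.37 and 5.57 in cKO1 and cKO3, against 5.08 in WT1, the only WT library without Xist and the lowest library for 66 members. With Xist as a covariate 52 of the 77 members passed, all 10 common subunits of complex IV among them, where 6.21% of all genes passed on the higher side. These were 24 in complex I, 2 in complex II (Sdha and Sdhc), 4 in complex III, 11 in complex IV (with Cox7a2l) and 11 in complex V. The mouse numbers fall in 2 runs, whose meaning the labels do not give. Within numbers 1058 to 1062 (cKO1, cKO2 and WT1), 75 of 77 members were higher in cKO, with a median difference of 0.46, beside 46.8% of all genes; WT1, the lowest library for 66 members, is the only WT library of that run. Within numbers 1101 to 1109 (cKO3, cKO4, WT2 and WT3), 74 of 77 were higher, with a median of 0.37, beside 49.6% of all genes.

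The members that passed differed between fits. Cox6c and Cox6a1 of complex IV passed most often. With replicate numbers as a block these 2 alone passed (1.44% of all genes did on the higher side), and without cKO1 Cox6a1 alone passed (0.933%). DESeq2 called Atp5f1, Atp5g1, Atp5j, Cox5a, Cox6a1, Cox6c, Cox7b, Cox7c, Ndufa1, Sdha and Uqcrh, and limma-voom with sample quality weights called 11 (4.27%), with Atp5c1 in place of Uqcrh. With the runs of mouse numbers as a block, Cox6a1, Cox6c, Cox7b, Cox7c, Ndufa4 and Uqcrh passed (1.14%). Offsets for GC content let Atp5d, Atp5g1, Atp5j, Cox6a1, Cox6c and Ndufv3 pass (1.85%), and offsets for length let Atp5f1 pass (1.48%). With both, the 10 were Atp5d, Atp5f1, Atp5g1, Atp5j, Cox6a1, Cox6c, Ndufa10, Ndufa13, Ndufv3 and Sdha, and taking length and GC content from the longest transcript gave 13 (4.39%). Both offsets with the mouse-number runs gave 23 members (6.16%), and both with Xist gave 34 (8.27%). DESeq2 called 5 of 13 tested members in complex IV and 3 of 17 in complex V (3.12% of all genes on the higher side). In complexes I to III it called 1 of 35, 1 of 4 and 1 of 8. With offsets for length and GC content, 2 of 13 passed in complex IV and 4 of 17 in complex V (3.84%). In complexes I to III these were 3 of 35, 1 of 4 and 0 of 8.

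**Figure D5:**
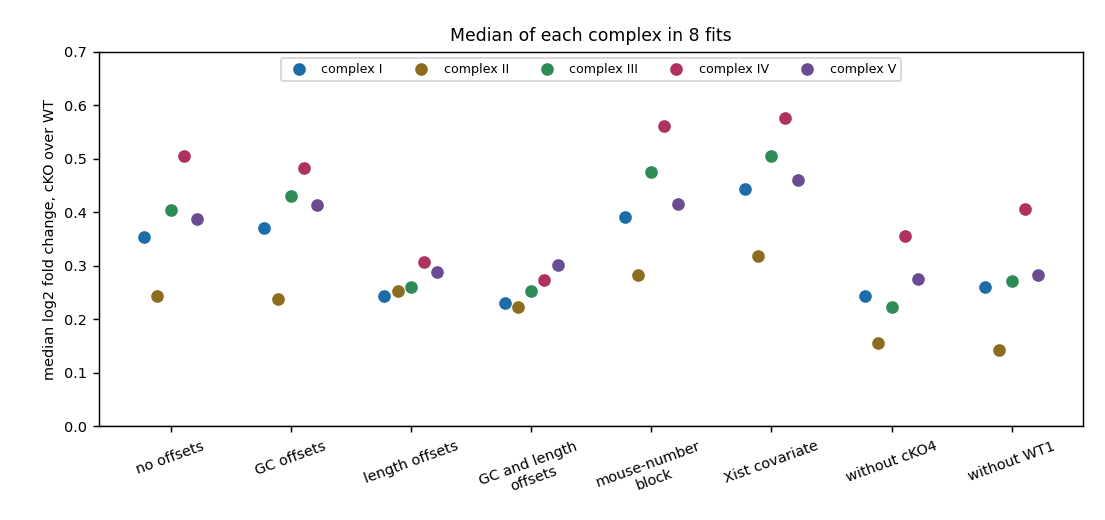
Median log2 fold change of cKO over WT for each complex in 8 fits, with no offsets at the left. The fits without cKO4 and without WT1 leave out that library, and the others use all libraries. All medians are above 0; the spread between complexes is 0.26 without offsets and 0.08 with GC content and length offsets.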

How the data were processed

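The authors deposited a table of whole-number counts per gene symbol for 7 libraries, not normalized. Per the labels' protocols, RNA (integrity number above 8.5) was poly(A)-selected, and per the submitters' processing notes DRAGEN and GRCm39 were used; no source used here states the annotation, the counting rule or the strand setting, so reads of overlapping genes and near-identical copies have an uncertain assignment.

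From these counts, genes were kept with filterByExpr (least count 10, least total 15) and tested in R 4.3.3 with edgeR 4.0.16 (TMM factors, quasi-likelihood F test, robust option, no covariate), cKO against WT, with Benjamini-Hochberg adjustment over 11991 genes. The SE is the size of the log2 fold change divided by the square root of F, and a prior count of 2 was added for log2 CPM. Each library is a separately numbered mouse, so p-values measure the spread between mice; sex, litter and sort or sequencing batch are not given in the labels. The procedure was tested on simulated counts in which randomly picked genes were changed by known folds. These counts held no small shift shared by a group of genes and no trend with length or GC content. The behaviour of the test under such a shift or trend was not tested.

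Members and lists were chosen with earlier results of these data known. Of the members, 7 were not tested: Ndufs5, Ndufa4l2, Cox7b2, Cox8b and Cox8c were listed at 0, Cox4i2 had 8 counts in all and Cox7a1 had 65. Named in full are the 4 members of each complex with the smallest p, the 3 with the lowest log2 fold change, the isoform groups, and up to 2 genes of a list. Transcript length and GC content are from the APPRIS principal transcript of GENCODE M21 (GRCm38), with values for 99.3% of genes tested, and offsets for them were loess fits per library (span 0.3). Symbols of all 84 members were found in a RefSeq table of GRCm38.p6, 3 by a synonym. The alternatives were other scaling factors, DESeq2 1.42.0, limma-voom (limma 3.58.1) without and with sample quality weights, other filters (none, or 1 CPM in 3 libraries), a block of replicate numbers or of mouse-number runs, Xist as a covariate, the offsets, and leaving out each library.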

Additional observations from a re-analysis of the deposited data

How the results depend on the processing

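The median log2 fold change stayed above 0 in every alternative run, between 0.25 and 0.46 for all members, 0.23 and 0.44 for complex I, 0.14 and 0.32 for complex II, 0.22 and 0.51 for complex III, 0.27 and 0.60 for complex IV and 0.28 and 0.46 for complex V. Complex IV had the highest median in 20 of 24 alternatives and complex II the lowest in 21; the exceptions were among those with length offsets. The number of members past the threshold depended on the setting, as did the share of all genes called on the higher side, given in brackets. The number was 0 in the fit reported (0.317%), 11 with DESeq2 (3.12%) and 11 with sample quality weights (4.27%). It was 6 with runs of mouse numbers as a block (1.14%) and 52 with Xist as a covariate (6.21%). It was 6 with GC offsets (1.85%), 1 with length offsets (1.48%) and 10 with both (3.84%). Both offsets with those runs gave 23 (6.16%), and both with Xist gave 34 (8.27%). It was 13 with both from the longest transcript (4.39%), an alternative chosen after seeing the data. Leaving out Atp5s and Atp5sl, done for medians alone, and the unadjusted and no-overlap counts without single libraries were also chosen after seeing the data. Leaving out single libraries gave 0 to 1 members (Cox6a1, without cKO1, where 0.933% of all genes passed on the higher side). The labels do not state that replicate numbers pair the libraries. Same-numbered cKO and WT libraries had correlations of 0.39, 0.07 and −0.17, and other-numbered ones ran from −0.37 to 0.38. So few values cannot settle whether pairs exist. The replicate block gave 2 members (Cox6c and Cox6a1), where 1.44% of all genes passed on the higher side. Replicate number 4 belongs to cKO4 alone, so cKO4 adds nothing to the log2 fold changes of that fit. Scaling by RLE or upper-quartile factors, limma-voom, no robust option, no filter and the 1 CPM filter gave 0. Ndufv1 was −0.018 with sample quality weights, −0.017 with the replicate block and −0.016 without cKO4, and Cox6b2 was −0.13 with offsets and Xist; the cause was not tested. The median SE of the tested members was 0.16. Low counts limit Cox6a2, Cox6b2, Ndufb4 and Atp5l.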
